A study of Mus musculus with 4 samples.

Results

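Acute-phase genes encode the mostly secreted proteins whose blood levels change in inflammation, and 7 of them were followed in mouse tumours: Serpina3n, Serpina3g, Serpina3f, Saa3, Lcn2, Hp and Lbp. They were chosen by name, out of 54115 annotated genes, from earlier results of the same comparison of vanoxerine with saline. Their differences between the groups are therefore given as a description, without a test. They were measured by RNA sequencing of snap-frozen primary tumours that formed after mice were injected with MC38, a colon adenocarcinoma line of the mouse. In the saline group (2 libraries) mice had 10 daily intraperitoneal injections of saline. In the vanoxerine group (2 libraries) the 10 daily intraperitoneal injections held vanoxerine, an inhibitor of the dopamine transporter, at 25 mg/kg. No source used here gives the strain, sex or age of the mice. Nothing in the labels ties each library to an animal of its own, so the spread within a group may be technical.

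The acute-phase response is classically a response of the liver to interleukin 6 and interleukin 1, which act through the transcription factors STAT3, C/EBP and NF-kB. Several of its genes are also switched on outside the liver, in macrophages, neutrophils, fibroblasts and epithelia of inflamed tissue and tumours. The mouse carries a cluster of Serpina3 genes in place of the single human SERPINA3 gene, which encodes the protease inhibitor alpha-1-antichymotrypsin, and its copies differ in the proteases they inhibit.

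The libraries held 67289273 to 75748162 estimated reads. A whole tumour contains many cell types, so that fewer cells of a type and less RNA per cell cannot be told apart. The tumours had almost no RNA of liver: Alb, Apob and Tat, which mark hepatocytes, had no read in any library, which allows up to 0.0455 CPM (reads scaled to a common library size by the TMM method) from counting error alone. Among epithelial markers, Cdx2, the intestinal transcription factor gene, had no read, and the level of Epcam was 2.02 ± 0.378 CPM in saline against 4.11 ± 0.149 CPM after vanoxerine (mean ± SD, n = 2). The E-cadherin gene Cdh1 rose from 12.4 ± 1.57 to 26.5 ± 1.60 CPM (edgeR adjusted p = 0.000992).

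The 3 Serpina3 genes lie on chromosome 12 (GRCm38, forward strand): Serpina3f at 104214544 to 104221129, Serpina3g at 104236245 to 104241939 and Serpina3n at 104406729 to 104414329. Their main transcripts are 69.1% to 71.8% identical in pairwise alignments. The 250 bases before each RefSeq start (build GRCm38.p6) are shown to compare copies whose levels differed in opposite directions, 5′ to 3′ on the forward strand, with matches to 3 motifs in capitals. The windows are chr12:104406458-104406707 for Serpina3n, chr12:104235897-104236146 for Serpina3g and chr12:104214294-104214543 for Serpina3f.
Serpina3n: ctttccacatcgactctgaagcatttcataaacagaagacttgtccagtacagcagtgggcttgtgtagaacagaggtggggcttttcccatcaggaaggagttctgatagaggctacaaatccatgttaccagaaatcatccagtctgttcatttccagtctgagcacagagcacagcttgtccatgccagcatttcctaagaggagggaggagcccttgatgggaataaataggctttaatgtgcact
Serpina3g: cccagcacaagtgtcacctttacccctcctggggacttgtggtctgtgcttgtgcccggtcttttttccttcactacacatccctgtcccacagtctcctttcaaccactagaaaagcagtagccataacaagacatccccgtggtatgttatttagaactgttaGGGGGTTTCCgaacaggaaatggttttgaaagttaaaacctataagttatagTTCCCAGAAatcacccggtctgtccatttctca
Serpina3f: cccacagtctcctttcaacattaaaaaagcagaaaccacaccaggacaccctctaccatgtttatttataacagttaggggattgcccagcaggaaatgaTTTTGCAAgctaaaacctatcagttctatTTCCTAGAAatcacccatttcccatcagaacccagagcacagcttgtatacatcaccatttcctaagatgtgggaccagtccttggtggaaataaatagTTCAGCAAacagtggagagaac

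The motifs were a STAT site (TTCNNNGAA), a C/EBP core (TTGCNNAA) and the NF-kB consensus, searched on both strands, and no match overlapped another. Serpina3g held a STAT match and an NF-kB match, Serpina3f a STAT match and 2 C/EBP matches, and Serpina3n none of the 3 motifs. The RefSeq start of Serpina3g lies 105 bases upstream of its main transcript's start, against 21 for Serpina3n and 0 for Serpina3f. The bases in between were not searched, so the windows do not cover the same stretch of each copy. Of 32851 mouse promoters of the same length, 7.0% held a STAT match, 9.6% a C/EBP match and 7.3% an NF-kB match. The STAT matches of Serpina3g and Serpina3f lay in a block that the Serpina3n promoter also holds, which is shown over 25 bases with the 9 bases of the site in capitals. The windows are chr12:104236106-104236130 for Serpina3g, chr12:104214415-104214439 for Serpina3f and chr12:104406577-104406601 for Serpina3n.
Serpina3g: agttatagTTCCCAGAAatcacccg
Serpina3f: agttctatTTCCTAGAAatcaccca
Serpina3n: aatccatgTTACCAGAAatcatcca

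Counted from 1 at the first capital and read from Serpina3g, the site of Serpina3n carries C3A, a position fixed in the motif, and that of Serpina3f carries C5T, a position that is free in it. Over the 25 bases, 17 in Serpina3n and 21 in Serpina3f equalled those of Serpina3g. The block was picked out after the values of the genes were seen. A match of letters is not a measured binding site.

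Serpina3n encodes a secreted inhibitor of serine proteases, known in the mouse to inhibit granzyme B. It stood at 3.05 and 3.89 CPM in the saline libraries and at 0.390 and 0.577 CPM in the vanoxerine libraries. Both vanoxerine libraries were far below both saline libraries, on few reads: 233 and 277 in saline against 27 and 38. The log2 fold change was -2.84 ± 0.33 (SE), or 7.16-fold lower in vanoxerine. All of its reads were assigned to its only annotated transcript.

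Serpina3g encodes an inhibitor that acts inside cells, known from mouse leukocytes to inhibit lysosomal cathepsins. It stood at 67.9 and 63.3 CPM in saline and at 160 and 154 CPM in vanoxerine. It was the most abundant of the 7 genes in reads in every library, and both vanoxerine values lay above both saline values. The log2 fold change was 1.26 ± 0.057 (SE), or 2.39-fold higher. Its main transcript, Serpina3g-201, took 92.0% and 88.9% of its reads in saline and 88.8% and 85.1% in vanoxerine. Of its TPM, this transcript took 75.3% and 67.9% in saline and 67.2% and 60.3% in vanoxerine, with the rest on shorter transcripts.

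Serpina3f, the neighbour of Serpina3g, also encodes a serpin. It stood at 10.8 and 11.97 CPM in saline and at 16.7 and 17.1 CPM in vanoxerine, without overlap, a log2 fold change of 0.57 ± 0.10 (SE). Its isoforms varied between the saline libraries. The transcript Serpina3f-203 took 24.5% of its reads in saline 1 and none in saline 2, against 12.5% and 16.7% in vanoxerine.

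Reads of these copies are partly shared. Of the distinct 31-base words in their transcripts, 21.6% for Serpina3n, 28.4% for Serpina3g and 27.3% for Serpina3f also occur in transcripts of other genes, mostly of the same cluster, and Salmon divided such reads by estimate. Of the 13 other Serpina1 and Serpina3 genes, 12 were too low to test, 8 of them with no read. Only Serpina3m passed the low-count filter, at 0.218 ± 0.0683 CPM against 0.0748 ± 0.0445 CPM with vanoxerine (edgeR adjusted p = 0.269).

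**Figure D1:**
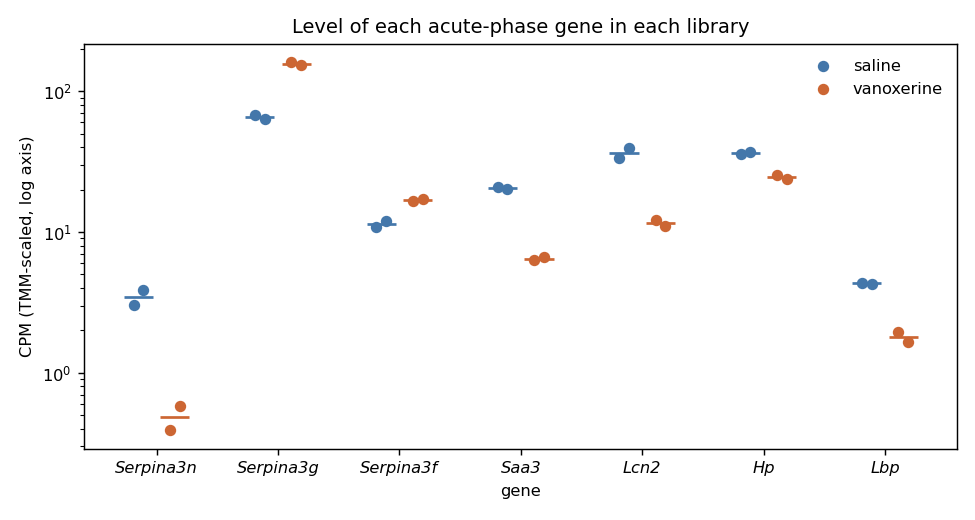
Levels of the 7 genes in CPM on a log axis; points are the 2 libraries of each group and bars their mean. Serpina3g and Serpina3f lie higher in vanoxerine (157 against 65.6 CPM and 16.9 against 11.4 CPM), and the other 5 genes lie lower.

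Saa3 encodes a serum amyloid A that the mouse makes largely outside the liver, in macrophages and fat. It lies on the reverse strand of chromosome 7 at 46711998 to 46715700. The 226 bases before its first annotated start (chr7:46715701-46715926, GRCm38.p6, reverse strand) are shown because Saa3 is a classical target of C/EBP factors, and its C/EBP match is in capitals.
Saa3: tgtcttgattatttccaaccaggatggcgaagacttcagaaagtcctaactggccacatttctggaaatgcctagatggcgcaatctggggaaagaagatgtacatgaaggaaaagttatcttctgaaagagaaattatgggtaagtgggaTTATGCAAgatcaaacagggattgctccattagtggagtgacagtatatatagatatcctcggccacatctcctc

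Saa3 stood at 20.7 and 20.2 CPM in saline and at 6.31 and 6.65 CPM in vanoxerine. The libraries of a group were close, and the groups did not overlap. The log2 fold change was -1.66 ± 0.097 (SE), or 3.16-fold lower in vanoxerine. Its relatives Saa1 and Saa2, made in the liver, were near the limit of detection, with no library above 0.239 CPM.

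Lcn2 encodes lipocalin 2, which binds bacterial siderophores and so withholds iron, and which neutrophils store in granules. The gene lies on the reverse strand of chromosome 2 at 32384633 to 32388252. It stood at 33.5 and 39.5 CPM in saline and at 12.2 and 11.0 CPM in vanoxerine, without overlap. The log2 fold change was -1.65 ± 0.11 (SE), close to that of Saa3. The stretch searched before the RefSeq start of Lcn2 (chr2:32387740-32387989) also held a C/EBP match, as did 9.6% of mouse promoters. That stretch lies within the annotated gene and is covered by an annotated transcript, so it is not clearly promoter sequence. The transcript Lcn2-206, a second coding form, took 16.5% and 18.6% of its reads in saline and 8.57% and 13.8% in vanoxerine, so the share of this form was lower in both vanoxerine libraries. Lcn2 shares no 31-base word with another gene, against 7.6% of the words of Saa3, 0.3% of those of Hp and 0.9% of those of Lbp. The shared words of Saa3 were spread over 3041 other genes, each holding at most 2.6% of its words.

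Hp encodes haptoglobin, which binds free haemoglobin for uptake through the macrophage receptor CD163, and lies on the reverse strand of chromosome 8 at 109575128 to 109579172. It stood at 35.7 and 37.2 CPM in saline and at 25.5 and 23.6 CPM in vanoxerine. This was the smallest difference in log2 size beside that of Serpina3f, at -0.57 ± 0.073 (SE) or 1.49-fold lower, and the groups did not overlap. Its receptor gene Cd163 rose from 0.648 ± 0.176 to 2.41 ± 0.242 CPM (n = 2; edgeR adjusted p = 0.00771), but without vanoxerine replicate 2 it was no longer called (adjusted p = 0.0725).

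Lbp encodes the lipopolysaccharide-binding protein, which hands bacterial lipopolysaccharide to CD14 and TLR4. It lies on the forward strand of chromosome 2 at 158306493 to 158332852. It was low, at 4.37 and 4.25 CPM in saline and 1.95 and 1.65 CPM in vanoxerine, again without overlap. The log2 fold change was -1.26 ± 0.21 (SE), or 2.39-fold lower. The genes of both partners rose: Cd14 rose from 249.8 ± 2.72 to 369 ± 4.39 CPM (edgeR adjusted p = 0.000242) and Tlr4 from 24.01 ± 3.29 to 59.2 ± 0.246 CPM (adjusted p = 0.000291).

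All 7 genes passed the filter on low counts. The fit called 5 of them lower and 2 higher at an edgeR adjusted p under 0.05, where 36.9% of the 18758 genes tested were called, 15.9% lower and 21.0% higher. Groups did not overlap for any of the 7, nor for 70.7% of genes tested, 35.8% with vanoxerine higher and 34.9% with it lower. The genes were picked on this comparison, so nothing is read from these counts. Serpina3f was not called without either vanoxerine library, nor Lbp without vanoxerine replicate 2. In the authors' deposited table the log2 fold changes had the same signs, from -2.66 for Serpina3n to 1.38 for Serpina3g. The base means there lay within 0.1 log2 of those of these 4 libraries for 94.8% of 14571 genes, so that table is not a separate measurement.

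Between genes, levels were compared as TPM, which accounts for transcript length. In saline the order was Saa3 (50.7 ± 1.99 TPM), Lcn2 (42.0 ± 3.83), Serpina3g (37.8 ± 0.865), Hp (25.3 ± 0.0428), Serpina3f (4.48 ± 0.158), Serpina3n (1.46 ± 0.213) and Lbp (1.45 ± 0.0509). The last pair, Serpina3n and Lbp, overlapped between libraries, and the other neighbours did not. In vanoxerine Serpina3g came first with 115.9 ± 1.26 TPM, and Hp (20.04 ± 1.15 TPM) and Saa3 (18.9 ± 0.705 TPM), which overlapped, came next. Lcn2 followed at 15.8 ± 1.44 TPM, Serpina3f at 7.95 ± 0.117 TPM, Lbp at 0.715 ± 0.0867 TPM and Serpina3n at 0.242 ± 0.0637 TPM, with no overlap between these neighbours.

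Serpina3g thus made up 23.7% and 22.7% of the summed TPM of the 7 genes in saline and 63.9% and 65.2% in vanoxerine. Its rise was larger in TPM (37.8 to 115.9) than in CPM (65.6 to 157). Shorter transcripts took more of its TPM in vanoxerine, which raises its share there. The ratio of Serpina3g to Serpina3n in TPM was 29.3 and 23.1 in the saline libraries but 584 and 407 in the vanoxerine libraries. By contrast, Saa3 over Lcn2 gave ratios of 1.33 and 1.10 (saline) against 1.10 and 1.32 (vanoxerine), and the groups overlapped. The sum of the 7 genes went from 162.2 and 164.1 TPM in saline to 179.9 and 179.2 TPM in vanoxerine. TPM also ran higher in vanoxerine for the typical gene, with a median log2 fold change of 0.13 over all genes with log2(TPM + 1).

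**Figure D2:**
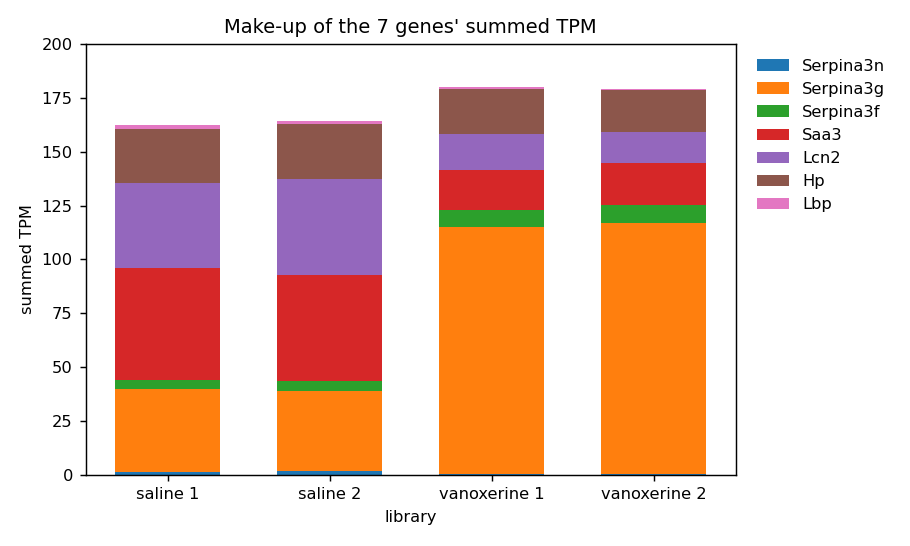
Stacked TPM of the 7 genes in each library. Serpina3g takes 22.7% to 23.7% of the bar in saline and 63.9% to 65.2% in vanoxerine, while Saa3, Lcn2 and Hp take less.

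The genes with the profile most like each member over the 4 libraries were found by the distance between centred log2 CPM values, among 12571 genes, with a smaller distance for a closer match. The measure mostly reflects the size of the group difference, since 4 libraries carry little else. Nearest to Serpina3n were Cilp (distance 0.237), Hmga1b (0.314), a near copy of Hmga1 and so uncertain, and the elastin gene Eln (0.358). Serpina3g had closer matches, in Lcp2 (0.0268), an adaptor gene of leukocyte signalling, Nipa2 (0.0348) and Arhgap18 (0.0351). In TPM, however, Lcp2 overlapped between the groups, at 172 and 32.6 in saline and 86.2 and 371 in vanoxerine. Serpina3f was nearest to Ehbp1l1 (0.014), Ankrd50 (0.0194) and Klf7 (0.0211). With a transcript length offset, Lcp2 and Ankrd50 were not called (edgeR adjusted p = 0.547 and 0.607). Nor were they with log2(TPM + 1) (limma adjusted p = 0.474 and 0.339).

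Saa3 was nearest to the heat shock gene Hspa1a (0.0575), whose reads cannot be fully told apart from those of its near copy, to Igfbp3 (0.0852) and Efemp1 (0.0891), and Lcn2 to Sema3f (0.0692) and Adamts2 (0.0995). Hp was nearest to Dbndd2 (0.0161), Slc22a7 (0.0209) and Eef1akmt4 (0.0258). Lbp was nearest to the transferrin receptor 2 gene Tfr2 (0.0641), the matrix gene Fbln2 (0.0796) and Ltf (0.0915), the lactoferrin gene of neutrophil granules. With log2(TPM + 1), Slc22a7, Eef1akmt4 and Ltf were not called (limma adjusted p = 0.502, 0.063 and 0.127).

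The other acute-phase proteins did not share a direction. Of 26 such genes, 16 could be tested, 2 rose (12.5%, against 21.0% of all genes) and 2 fell (12.5%, against 15.9%). The median log2 fold change was -0.21 against -0.01 over all genes tested. With upper-quartile scaling 2 rose and 4 fell, and 8 and 7 were called without saline replicate 1 and 2. Among those that rose, the complement factor gene Cfb went from 114 ± 0.0133 to 255 ± 7.98 CPM (edgeR adjusted p = 3.56e-05) and C4b from 38.3 ± 2.67 to 67.6 ± 1.57 CPM (adjusted p = 0.00039), though C4b was not called with a transcript length offset (adjusted p = 0.0809). Serping1, the gene of the complement C1 inhibitor, fell from 14.9 ± 1.006 to 3.59 ± 0.136 CPM (adjusted p = 0.000136) and the metallothionein gene Mt2 from 315 ± 25.2 to 231 ± 4.15 CPM (adjusted p = 0.00294). The liver genes Crp, Apcs and Fga had no read in any library.

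Genes listed as inducers of the response mostly went up, but its cytokine genes did not share a direction. The 26 tested were genes of cytokines, receptors, kinases and transcription factors, with the feedback inhibitor gene Socs3. Of these, 17 rose (65.4%, against 21.0% of all genes) and 4 fell (15.4%, against 15.9%), and the median log2 fold change was 0.47. Among the cytokine genes, Tnf and Il1a rose, Osm and Lif fell, Il6, Il1b and Il11 were not called, and Il22 had no read. Of the calls in this list 81.0% were higher, against 56.9% of those over all genes. With log2(TPM + 1) these shares were 94.1% and 82.5%, and with upper-quartile scaling 75.0% and 39.0%. Cebpa, a C/EBP factor gene, rose from 7.65 ± 0.934 to 39.95 ± 1.52 CPM (edgeR adjusted p = 5.16e-05), Tnf from 42.6 ± 2.21 to 77.97 ± 2.20 CPM (adjusted p = 0.000203), and Nfkbiz, a co-factor of NF-kB, from 135 ± 3.56 to 217 ± 0.671 CPM (adjusted p = 0.000175). On the STAT3 arm, Stat3 rose from 223 ± 7.53 to 346 ± 7.14 CPM (adjusted p = 0.000256), its feedback inhibitor Socs3 from 144 ± 0.637 to 229.7 ± 0.0980 CPM (adjusted p = 0.000145), and the interleukin 6 receptor gene Il6ra from 26.7 ± 1.56 to 45.4 ± 0.275 CPM (adjusted p = 0.000581).

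Il6 and Il1b, the genes of the classical inducing cytokines, did not pass the test. Il6 stood at 4.67 ± 0.547 CPM with saline and 5.63 ± 0.260 CPM with vanoxerine (edgeR adjusted p = 0.269), and Il1b at 746 ± 24.8 and 789 ± 26.5 CPM (adjusted p = 0.224), though Il1b was called higher without saline replicate 2 (adjusted p = 0.000661), with log2(TPM + 1) (adjusted p = 0.0182) and with log2(TPM + 0.1) (adjusted p = 0.0175). The 4 inducers that fell were the oncostatin M gene Osm, its receptor gene Osmr, Lif and the C/EBP factor gene Cebpb. Osm went from 178 ± 1.05 to 141 ± 1.55 CPM (adjusted p = 0.00227), Osmr from 23.3 ± 1.06 to 13.7 ± 0.671 CPM (adjusted p = 0.00145) and Cebpb from 214 ± 18.2 to 162 ± 3.78 CPM (adjusted p = 0.00612). Lif changed least, from 49.04 ± 0.00220 to 42.3 ± 0.0631 CPM (adjusted p = 0.0268). With log2(TPM + 1), Osm, Osmr and Lif were no longer called (adjusted p = 0.292, 0.133 and 0.499). Without vanoxerine replicate 1 or 2, neither Osm (adjusted p = 0.0564 and 0.0658) nor Lif (adjusted p = 0.284 and 0.282) was called, nor was Cebpb without vanoxerine replicate 1 (adjusted p = 0.0681). Genes named outside the rule in the methods were picked for a known link to a member after their values were seen.

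Receptors, partners and protease targets of the 7 proteins rose in 12 of 16 tested genes (75.0%, against 21.0% of all genes). They fell in 0, and 4 were not called, namely Ly96, Slc22a17, Lrp2 and Ager (edgeR adjusted p = 0.803, 0.506, 0.924 and 0.319). Their median log2 fold change was 0.63. Ctsb, a cathepsin of the kind that SERPINA3G inhibits, rose from 1391 ± 4.26 to 3526 ± 27.995 CPM (edgeR adjusted p = 6.85e-06). Proteases of serpin biology included the mast cell chymase gene Cma1, from 3.12 ± 0.614 to 21.2 ± 1.88 CPM (adjusted p = 0.00013), the cathepsin G gene Ctsg, from 9.12 ± 0.834 to 14.7 ± 0.310 CPM (adjusted p = 0.00526), and the granzyme B gene Gzmb, from 887 ± 27.04 to 1016 ± 20.5 CPM (adjusted p = 0.0129). Gzmb was not called with upper-quartile scaling (adjusted p = 0.351) or without vanoxerine replicate 1 or 2 (adjusted p = 0.155 and 0.0907). Mmp9, whose gelatinase is known in humans to form a complex with lipocalin 2, rose from 24.8 ± 3.82 to 70.1 ± 4.45 CPM (adjusted p = 0.000282), opposite to Lcn2. Tlr2, a receptor for serum amyloid A, rose from 49.6 ± 1.005 to 107 ± 2.60 CPM (adjusted p = 5.35e-05).

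**Figure D3:**
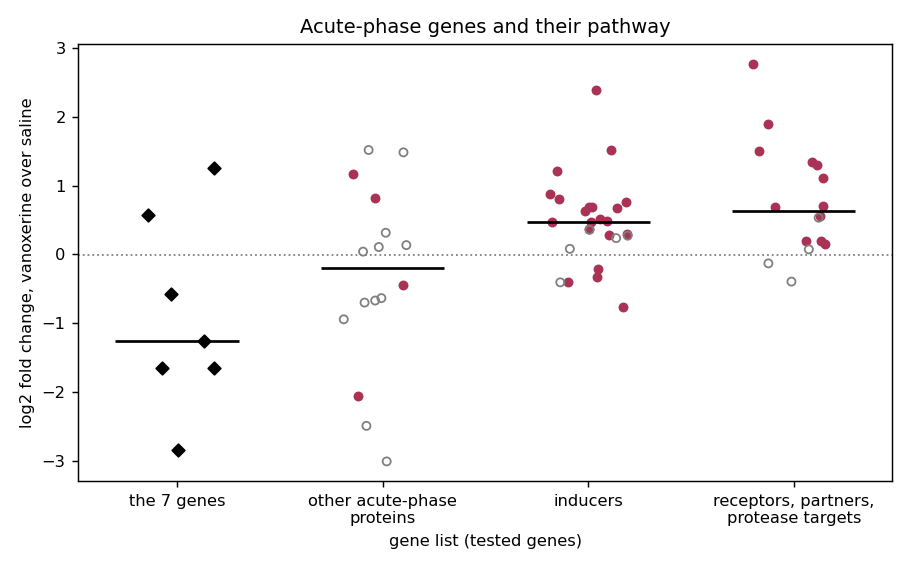
Log2 fold change of vanoxerine over saline for the tested genes of each list; diamonds are the 7 genes (not tested), filled circles genes called at an adjusted p under 0.05, open circles genes not called, bars the list medians and the dotted line the median of all genes. The inducers (median 0.47) and partners (median 0.63) lie mostly above the line, and 5 of the 7 genes lie below it.

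Markers of the cell types that can make these proteins also differed between the groups, and their part in the members' differences was not tested. For comparison with the counts of each cell type, 15.9% of all genes tested were called lower and 21.0% higher. Neutrophil markers fell in 9 of 15 tested genes and rose in 1. Their median log2 fold change was -0.90, and their summed level was 1030 to 1074 CPM in saline and 649.7 to 654.5 CPM in vanoxerine. S100a9 went from 497 ± 37.9 to 227 ± 2.10 CPM (edgeR adjusted p = 8.81e-05) and S100a8 from 236 ± 12.6 to 126 ± 0.873 CPM (adjusted p = 0.000123), beside the lower Lcn2. S100a9 and S100a8 made up most of the summed level. Among the 5 markers not called were Csf3r, at 101 ± 1.98 and 105 ± 3.17 CPM (edgeR adjusted p = 0.457), Cxcr2 (adjusted p = 0.139) and Mmp8 (adjusted p = 0.165). The marker that rose was Trem1, from 47.9 ± 0.704 to 61.4 ± 0.470 CPM (adjusted p = 0.00327). Of the neutrophil markers, 4 were called without vanoxerine replicate 1 or 2, and 6 with the length offset or with log2(TPM + 1). Fibroblast markers fell in 9 of 11 and rose in 1, with a median of -1.004, and summed to 747 to 759 CPM in saline and 557.2 to 560.4 CPM in vanoxerine. Among these, Dpt went from 7.02 ± 0.342 to 0.717 ± 0.0690 CPM (adjusted p = 0.000153), and the collagen-binding proteoglycan gene Dcn from 75.8 ± 0.121 to 39.9 ± 0.253 CPM (adjusted p = 8.93e-05). Thy1, the fibroblast marker that rose, went from 216 ± 15.2 to 289 ± 3.80 CPM (adjusted p = 0.00285) and made up much of the summed level.

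Of 7 endothelial markers 5 fell and 1 rose, with a median of -1.65, whereas their summed level overlapped, at 140 to 144 CPM in saline and 139 to 142 CPM in vanoxerine. Plvap went from 21.8 ± 0.528 to 5.39 ± 0.106 CPM (edgeR adjusted p = 6.23e-05). Pecam1, which made up much of the summed level, rose from 53.6 ± 1.06 to 98.2 ± 0.202 CPM (adjusted p = 9.6e-05). Macrophage markers rose in 10 of 10, with a median of 2.50, and summed to 781 to 820 CPM in saline and 4013 to 4029 CPM in vanoxerine, beside the higher Serpina3g and the lower Saa3. The complement gene C1qa rose from 83.2 ± 1.60 to 743 ± 14.4 CPM (edgeR adjusted p = 5.13e-06) and the pan-macrophage gene Adgre1 from 25.6 ± 2.88 to 209 ± 1.93 CPM (adjusted p = 1.21e-05).

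Adipocyte markers fell in 2 of 6 tested genes (in 1 without vanoxerine replicate 1) and summed to 30.45 to 30.95 CPM in saline and 15.96 to 17.3 CPM in vanoxerine. Most of this was Fabp4, which other cells also express, from 28.2 ± 0.299 to 15.8 ± 0.566 CPM (edgeR adjusted p = 0.000619), and Lep had no read in any library. Cfd, the adipsin gene, stood at 0.249 and 0.561 CPM in the saline libraries and had no read in vanoxerine. It was at least 9.12-fold lower there, counted against 3 reads in each library, a bound of 5.6-fold from saline 1 alone and 12.6-fold from saline 2 alone. Its call was lost without vanoxerine replicate 1 or 2 (edgeR adjusted p = 0.098 and 0.0987) and with log2(TPM + 1) (limma adjusted p = 0.0585). Hepatocyte markers summed to 1.24 to 1.49 CPM in saline and 0.665 to 0.698 CPM in vanoxerine, of which only Cps1 could be tested. It fell (edgeR adjusted p = 0.0443), and its call was lost under 7 of 14 alternatives in which it was tested, leaving out either vanoxerine replicate among them, with adjusted p up to 0.245. Epithelial markers rose in 3 of 5 tested genes and summed to 16.15 to 18.8 CPM in saline and 34.9 to 36.8 CPM in vanoxerine, and 1 was called without vanoxerine replicate 1 or 2.

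**Figure D4:**
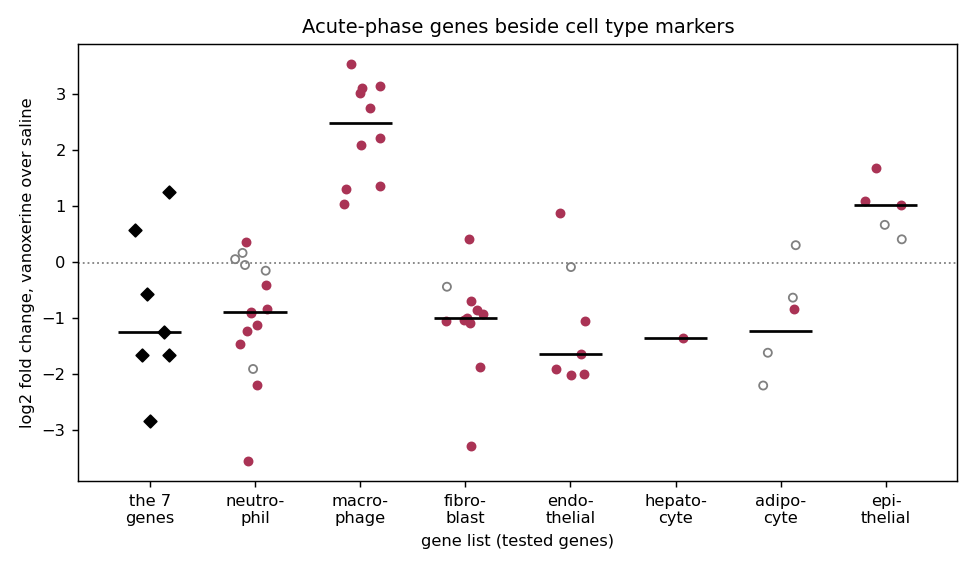
Log2 fold change of vanoxerine over saline for the 7 genes (diamonds, not tested) and for tested markers of 7 cell types; filled circles were called at an adjusted p under 0.05, open circles were not, bars are list medians, the dotted line is the median of all genes, and Cfd, with no read in vanoxerine, is left out as a point. Macrophage markers (median 2.50) lie above the line, and neutrophil (-0.90) and fibroblast (-1.004) markers mostly below it.

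The direction of each of the 7 genes was the same in each of 15 processing alternatives. Serpina3n ranged from -3.14 without vanoxerine replicate 2 to -0.98 with log2(TPM + 1), where the added 1 understates the change of so low a gene. Serpina3g ranged from 1.12 to 1.61 and Serpina3f from 0.44 to 0.81, lowest with upper-quartile scaling and highest with log2(TPM + 0.1). Saa3 ranged from -1.79 to -1.38, Lcn2 from -1.79 to -1.36, Hp from -0.71 to -0.32 and Lbp from -1.39 to -0.51, each lowest with upper-quartile scaling and highest with log2(TPM + 1). The median of all genes shifted to -0.14 with upper-quartile scaling, to 0.13 with log2(TPM + 1) and to 0.21 with log2(TPM + 0.1). Relative to that median, Hp lay between -0.60 and -0.45 and Serpina3f between 0.50 and 0.66.

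**Figure D5:**
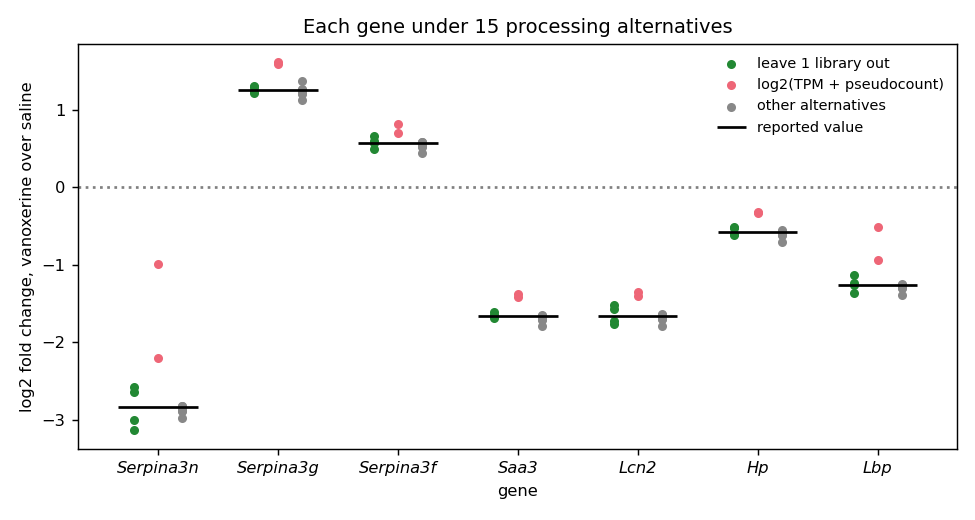
Log2 fold change of the 7 genes under 15 processing alternatives; the black bar is the reported value, green points leave out 1 library, red points use log2(TPM + pseudocount) and grey points are the other alternatives. No gene crosses 0, and the red points lie above the reported value for each gene.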

How the data were processed

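Total RNA of snap-frozen tumours was made into 4 TruSeq RNA v2 libraries and sequenced on an Illumina NextSeq, per the labels' protocols. The submitters' processing notes name fastp, Salmon 1.3.0, DESeq2 and the GRCm38 build. The strand setting and annotation release are not given in the sources consulted. The deposited values are, per the file headers, estimated counts and TPM values for each transcript, made by the authors with Salmon. The authors' deposited table of the comparison holds each gene's base mean (a normalised signal), log2 fold changes with standard errors, and p-values, per the file headers. Beside these, 4 per-library columns match no sample by name and were not used.

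Estimated counts were summed per gene with GENCODE M21 names (139791 of 140992 transcripts matched), rounded, and fitted with edgeR 4.0.16 in R 4.3.3: TMM scaling, a minimum count of 10 with a minimum total of 15, the quasi-likelihood test, and Benjamini-Hochberg adjustment over 18758 genes. Genes were called at an adjusted p under 0.05. TPM was used for levels compared between genes, for the share and sum of the 7 genes in each library, and in 2 alternatives. The steps were tested on simulated data. Alternatives were DESeq2 1.42.0, limma 3.58.1 (voom, or log2 of TPM plus 1 or 0.1), other scalings, filters and a transcript length offset, a replicate block, and leaving out each library, 15 in all. The named genes were the 7 members, up to 4 tested genes with the smallest p of each other list, the 3 nearest profiles of each member (among genes averaging 1 CPM or more, predicted models left out), and cell type markers at 0. A gene that this rule names is not reported here. The members and lists were chosen with earlier results of these data known. Promoter sequences are from RefSeq, build GRCm38.p6, where 5 of 7 members matched. That of Lcn2 was searched but is not printed, since an annotated transcript covers it.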

Additional observations from a re-analysis of the deposited data

How the results depend on the processing

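Over all genes, 6916 were called, 56.9% of them higher. With upper-quartile scaling 2895 were called higher and 4525 lower (39.0% higher), and with log2(TPM + 1) 4094 and 870 (82.5%). With a transcript length offset 4305 genes were called. Leaving out 1 library in turn gave 3107 to 9708 genes, with the lone library of a group assumed to vary like those of the other. The saline libraries differed more from each other than the vanoxerine libraries did (mean chi-square per gene 37.7 against 11.9). Fits without a vanoxerine library thus took their variance from the noisier saline pair, and fits without a saline library from the closer vanoxerine pair. Replicate numbers did not pair the samples (correlation of deviations -0.013 over 9871 genes), and the replicate block called 6391 genes, 3757 higher and 2634 lower. With the block Lif was not called (adjusted p = 0.055), nor was Cps1 (adjusted p = 0.0843).

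Members called lower numbered 4 to 5, and higher 1 to 2, without 1 library: Serpina3f was not called without either vanoxerine library, and Lbp neither without vanoxerine replicate 2 nor with log2(TPM + 0.1). Without 1 library, calls ranged from 4 to 8 among other acute-phase proteins, 0 to 1 among other Serpina1 and Serpina3 genes, 4 to 11 among neutrophil, 0 to 1 among hepatocyte, 1 to 3 among adipocyte and 1 to 4 among epithelial markers. Neutrophil markers called were 6 with the length offset and with either TPM pseudocount. Hepatocyte markers called were 0 with the length offset, no low-count filter, a floor of 1 on the mean CPM, either TPM pseudocount and the block, against 1. Adipocyte markers called were 1 with a mean CPM of at least 1. Il1b had the opposite sign with upper-quartile scaling (-0.055), uncalled in both fits. The cause of these changes was not tested. Serpina3n had only 27 and 38 reads in vanoxerine, which limits its precision.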
